A study of Drosophila melanogaster with 21 samples.

Results

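Wnt signals reach a cell through a small set of surface proteins, and 9 genes of that set, 2 ligands and 7 receptors, coreceptors or ligand-binding proteoglycans, were followed here through pupal development of the L1 neuron of the fruit fly Drosophila melanogaster. The genes were Wnt4, Wnt5, fz, fz2, arr, drl, Drl-2, dally and dlp. They were picked by name, and all 9 were found among the 7076 genes of the deposited RNA table. Of 26121 ATAC peaks, regions of open chromatin, 82 had one of the 9 as the nearest gene in the authors' annotation. The fall of fz and the rise of Drl-2 between 40 h and 60 h were already known when the set was put together. Their RNA changes are therefore given as a description, with no p-value.

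Wnt proteins are secreted lipid-modified ligands. Frizzled receptors (fz and fz2 in this set) bind them, and together with the LRP5/6 homologue arrow (arr) they relay the signal to armadillo, the fly beta-catenin, while Frizzled proteins also act in planar cell polarity. Receptors of the Ryk family, derailed (drl) and Derailed 2 (Drl-2), bind Wnt5 and are known for steering axons, and the glypicans dally and dally-like (dlp) carry heparan sulfate chains that hold Wnt and other ligands at the cell surface.

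L1 is a lamina neuron of the fly visual system that receives photoreceptor input. The brains were wild type, and L1 cells were isolated by fluorescence-activated sorting at 3 pupal ages, 40, 60 and 72 hours after the puparium formed. RNA-seq, made with the SMART-seq2 protocol, had 2, 3 and 2 libraries at these ages, and ATAC-seq, made with a modified published protocol, had 2 libraries at each age. The 13 bulk libraries shared the genotype and cell type, so age was the sole labelled difference. The labels name neither the driver of the sort nor whether animals were pooled, and 8 single-cell samples, 6 of them with a labelled perturbation (EcRDN, EcRRNAi or Hr3RNAi), were not analysed here.

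RNA libraries held 22.5 to 39.5 M reads in genes and ATAC libraries 12.7 to 19.8 M reads in peaks, recovered from the deposited values. The L1 transcription factor gene svp lay between 109 and 139 RPKM in every RNA library, and was not called in any contrast. RPKM are reads per kilobase of transcript, here scaled to an effective library size that differs from the read total. Of the 11 listed genes of L1 and lamina neurons, 3 rose and 6 fell at 60 h, beside 25.2% and 22.5% of all genes. At 72 h against 40 h 3 were higher and 7 lower, beside 30.2% and 29.1%. On the log2 scale the higher ones were the histamine receptor gene ort (7.03), VGlut (1.48) and nSyb (1.47). The lower ones were eya (-1.74), elav (-1.56), brp (-1.18), sim (-0.91), dac (-0.78), slp1 (-0.48) and slp2 (-0.42). The eya values were 6.84 and 1.80 RPKM at 40 h and 0.643 RPKM or less later. It thus entered the test (at least 1 RPKM in 2 libraries) only through the age where it was high, so its calls are no support. Markers of other cells were present too. The summed level of 9 glial genes was 79.7 to 124.9 RPKM in the 40 h and 60 h libraries but 570 and 1702 RPKM at 72 h. That of 11 photoreceptor genes ran from 38.9 to 576 RPKM and was highest in 60 h replicates 1 and 2. There chp (98.3 and 186 RPKM) and trp (64.5 and 124 RPKM) made up much of it. The 11 genes did not move together. At 60 h against 40 h 3 were higher and 1 lower, beside 25.2% and 22.5% of all genes. From 60 h to 72 h 1 rose and 4 fell, beside 16.6% and 16.4%. The gene that rose, norpA, was highest at 72 h (9.62 and 10.7 RPKM). The summed level of 5 genes of neurons with other transmitters was 25.9 to 37.6 RPKM before 72 h and 117 and 90.4 RPKM at 72 h. Most of it in every library was VGAT, at 22.8 and 24.5 RPKM at 40 h and 83.9 and 65.9 RPKM at 72 h. From 60 h to 72 h 4 of these 5 genes rose, beside 16.6% of all genes. Among them Gad1 entered the test only through its 72 h libraries (5.99 and 3.13 RPKM, 0.406 RPKM or less elsewhere), so its call is no support. In these bulk samples a change in the number of cells of a type and a change in RNA per cell cannot be told apart. Among ATAC libraries, 60 h replicates 1 and 2 differed at many peaks of fz, as given below. They also differed over all peaks. In replicates 1 and 2 the lower quartile of the levels was 27.5 and 34.5, the median 39.8 and 44.2, and the upper quartile 66.8 and 62.9.

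**Figure D1:**
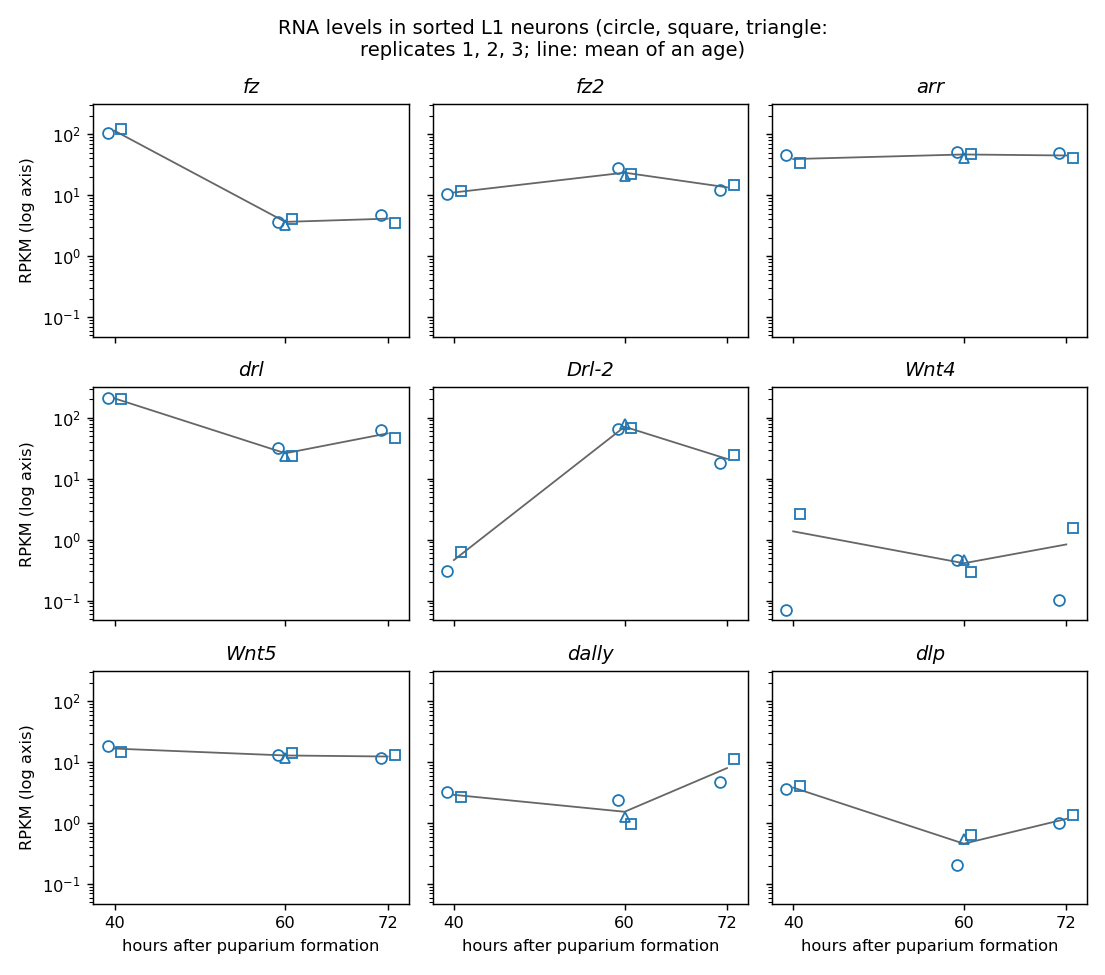
RPKM (log axis) of the 9 genes against age, with 1 symbol per library and a line through the mean of each age. fz dropped from above 100 RPKM to below 5, Drl-2 rose from below 1 RPKM to above 65, drl fell and then partly recovered, and arr and Wnt5 stayed within a narrow band.

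No change of either ligand was called. Wnt5, the ligand of derailed in axon guidance, stood at 18.7 and 14.6 RPKM at 40 h, at 12.9, 13.9 and 11.7 RPKM at 60 h and at 11.6 and 13.1 RPKM at 72 h. The 40 h libraries were above all later ones by a small margin, and the 60 h and 72 h values overlapped. The log2 change was -0.34 ± 0.18 (SE) at 60 h and -0.40 ± 0.19 at 72 h, both against 40 h (limma, Benjamini-Hochberg adjusted p = 0.14 and 0.10). With libraries scaled to their recovered read totals, a scaling chosen after seeing the data, both passed the threshold at -0.59 and -0.81 (adjusted p = 0.018 and 0.0043).

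Wnt4, a ligand known for guiding retinal axons in the optic lobe, was near the limit of detection in most libraries. Its values were 0.0708 and 2.66 RPKM at 40 h, 0.470, 0.296 and 0.463 RPKM at 60 h, and 0.102 and 1.56 RPKM at 72 h. They rested on 11, 412, 45, 22, 38, 8 and 133 reads. The second library was high and the first low at both 40 h and 72 h, so the spread within an age exceeded any difference between ages (adjusted p of 0.46 or more in each contrast). The photoreceptor sum was likewise higher in the second library at those ages, 125 against 38.9 RPKM and 171 against 66.2 RPKM, but the 60 h libraries with the highest sums had no more Wnt4. Its part in the Wnt4 values was not tested.

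The Frizzled genes exchanged places. fz, which encodes the founding Frizzled receptor, was at 106 and 121 RPKM at 40 h, at 3.58, 4.14 and 3.22 RPKM at 60 h and at 4.70 and 3.54 RPKM at 72 h. Both 40 h libraries lay far above the other 5, which overlapped each other. The mean at 60 h was 31.2-fold lower than at 40 h (log2 change -4.63 ± 0.19), and the 72 h level differed from the 60 h level by 0.13 ± 0.19. The fz values at 60 h were also known, and no p-value is given.

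fz2, the second Frizzled receptor, also found at synapses, went the other way and then back. It was at 10.5 and 11.6 RPKM at 40 h, 27.5, 22.2 and 20.5 RPKM at 60 h, and 12.3 and 14.6 RPKM at 72 h. All 60 h libraries were above all others. The rise was 1.01 ± 0.18 on the log2 scale (adjusted p = 8.2e-04), a 2.11-fold difference of means. It then fell by 0.75 ± 0.18 to 72 h (adjusted p = 0.0080). That later fall was -0.64 without 72 h replicate 1. It was -0.58 without 60 h replicates 1 and 2, which had the highest sums of the photoreceptor genes. Neither passed the threshold, and each of these fits leaves 1 library at an age. Within a library the ratio of fz to fz2 was 10.1 and 10.5 at 40 h. It was 0.130 to 0.187 at 60 h, and 0.382 and 0.242 at 72 h.

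The coreceptor gene arr was among the steadiest of the set. Its values were 44.9 and 33.3 RPKM at 40 h, 50.9, 47.8 and 40.9 RPKM at 60 h, and 49.2 and 40.2 RPKM at 72 h. The 3 ages overlapped. The log2 change was 0.25 ± 0.16 from 40 h to 60 h and -0.06 ± 0.16 from 60 h to 72 h, and neither passed the threshold (adjusted p = 0.22 and 0.83).

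The Ryk genes crossed over in the same interval. drl was the most abundant of the 9 genes at 40 h, at 212 and 202 RPKM, then stood at 31.5, 23.3 and 23.4 RPKM at 60 h and at 63.3 and 47.3 RPKM at 72 h. The ages did not overlap. It fell by 2.96 ± 0.16 on the log2 scale to 60 h (adjusted p = 1.7e-07), a 7.94-fold difference of means, and rose by 1.06 ± 0.16 to 72 h (adjusted p = 6.6e-04), reaching a level still 3.74-fold below that at 40 h.

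Drl-2 was at 0.306 and 0.617 RPKM at 40 h, from 85 and 171 reads. It was at 65.8, 68.2 and 79.2 RPKM at 60 h and 18.03 and 24.1 RPKM at 72 h. No library of one age reached the range of another. The mean rose 154-fold to 60 h. The log2 change, 5.63 ± 0.19 with a pseudocount of 1, understates a gene that starts this low, and it was 7.04 with a pseudocount of 0.1. From 60 h to 72 h the Drl-2 value changed by -1.72 ± 0.19 on the log2 scale, given with no p-value because the 60 h libraries are among those whose values were known. The ratio of drl to Drl-2 was 694 and 327 at 40 h, 0.295 to 0.478 at 60 h, and 3.51 and 1.96 at 72 h.

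The third Ryk gene, dnt (doughnut on 2), is not among the 9. It stood at 45.1 and 42.5 RPKM at 40 h, 21.7, 18.9 and 13.8 RPKM at 60 h, and 7.25 and 7.15 RPKM at 72 h. It fell in both intervals, by 1.25 ± 0.19 and 1.20 ± 0.19 (adjusted p = 3.0e-04 and 7.7e-04), so the 3 Ryk genes had 3 different courses.

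Both glypican genes were low throughout. dlp was at 3.62 and 4.02 RPKM at 40 h, 0.206, 0.626 and 0.546 RPKM at 60 h (22, 52 and 50 reads), and 1.01 and 1.34 RPKM at 72 h. The ages did not overlap. It fell by 1.73 ± 0.28 to 60 h (adjusted p = 4.5e-04) and was still lower at 72 h than at 40 h, by 1.15 ± 0.31 (adjusted p = 0.0076). The partial return from 60 h to 72 h, 0.58 ± 0.28, did not pass (adjusted p = 0.14).

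dally was at 3.18 and 2.64 RPKM at 40 h, 2.37, 0.980 and 1.25 RPKM at 60 h, and 4.73 and 11.2 RPKM at 72 h. The 72 h libraries were the highest. In RPKM they differed from each other more than the earlier ones did, though not as a ratio, where the 60 h libraries differed about as much. The rise from 60 h to 72 h was 1.76 ± 0.36 (adjusted p = 0.0035). Against 40 h it was 1.10 ± 0.39 (adjusted p = 0.032), and 0.56 (adjusted p = 0.27) without 72 h replicate 2. It also missed the threshold without 40 h replicate 1 or 2, at 1.20 and 1.00 (adjusted p = 0.073 and 0.12), and under 2 other settings given with the sensitivity results.

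The sum of the glial markers, like dally, was highest at 72 h, with 570 RPKM in replicate 1 and 1702 RPKM in replicate 2. There dally was 4.73 and 11.2 RPKM. The glial sum was 79.7 and 95.3 RPKM at 40 h and 125, 86.8 and 116 RPKM at 60 h. dally was lower in every 60 h library than at 40 h. The glial transcription factor gene repo was at 0.235 to 1.93 RPKM in the 40 h and 60 h libraries and at 5.08 and 16.7 RPKM at 72 h. From 60 h to 72 h 6 of 9 glial genes rose, 1 fell (Gli, -0.57, adjusted p = 0.038) and 2 were not called. Of all genes 16.6% rose and 16.4% fell. None of the 9 glial genes was at 0 in any library. Their part in the dally result was not tested.

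Of the 7 genes with a test at 60 h against 40 h, 1 was called higher, 2 lower and 4 not, where 47.7% of all 6939 tested genes were called (25.2% higher and 22.5% lower). From 60 h to 72 h the counts over all 9 genes were 2 higher, 2 lower and 5 not called, of which Drl-2 (lower) and fz (not called) rest on values known beforehand, against 33% of all genes (16.6% higher and 16.4% lower). For 72 h against 40 h, 7 had a test, of which 1 was higher, 2 were lower and 4 were not called, against 59.3% (30.2% higher and 29.1% lower). With so few genes, and with Drl-2 and fz counted from 60 h to 72 h only, nothing is read from the members' shares. Drl-2, dlp and Wnt4 passed the filter on low values (1 RPKM in 2 libraries) through some libraries only, Wnt4 through 1 at 40 h and 1 at 72 h.

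The order of abundance, in RPKM and so per length, changed with age. At 40 h it ran drl, fz, arr, Wnt5, fz2, dlp, dally, Wnt4 and Drl-2, and only the last 3 overlapped their neighbours. At 60 h Drl-2 came first, followed by arr, then drl and fz2, which overlapped, then Wnt5, fz and dally, and last dlp and Wnt4, which overlapped. At 72 h drl and arr led with overlapping ranges, then Drl-2, then fz2 and Wnt5, which overlapped, then dally, fz, and the overlapping pair dlp and Wnt4.

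Genes with the most similar course over the 7 libraries were ranked by the root mean square difference of centred log2 values, among 6938 other genes. For fz these were Lrch (0.18), CG11317 (0.22) and hid (0.23). For Drl-2 they were stv (0.25), lncRNA:CR44320 (0.31) and s-cup (0.37). For drl the second was otk2 (0.20), which encodes another Wnt-binding receptor of the off-track type, after Spn (0.19) and before CG32547 (0.20). For dally they were AnxB11 (0.24), CG5854 (0.29) and ome (0.30). The nearest for the steadier genes were Scgbeta for arr (0.07) and Sec61gamma for Wnt5 (0.06). Those for fz2, dlp and Wnt4 were CG12177 (0.11), grsm (0.13) and RnrL (0.22).

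The chromatin near these genes was examined next. The 82 peaks comprised 22 at fz, 18 at fz2, 11 at arr, 6 at drl, 7 at Drl-2, 3 at Wnt4, 1 at Wnt5, 11 at dally and 3 at dlp. Of these, 8 lay over a gene start (none for Wnt4), 63 elsewhere inside the gene span and 11 outside it. Peaks lie close together, in 45 runs with gaps of at most 1000 bp, so they are not independent. Levels below are RPKM of the peak, and the median over all peaks was 39.8 to 46.7 per library. Positions are those of the deposited file, whose genome build is not given in the sources used here. Distances in it matched gene ends of Release 6 within 1 base for 88.1% of the peaks that could be compared, and for 71 of 74 at the 9 genes. The other 3, all at fz2, were measured to another start, so their distances are not on the same scale as the rest. A positive distance is downstream of the start.

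**Figure D2:**
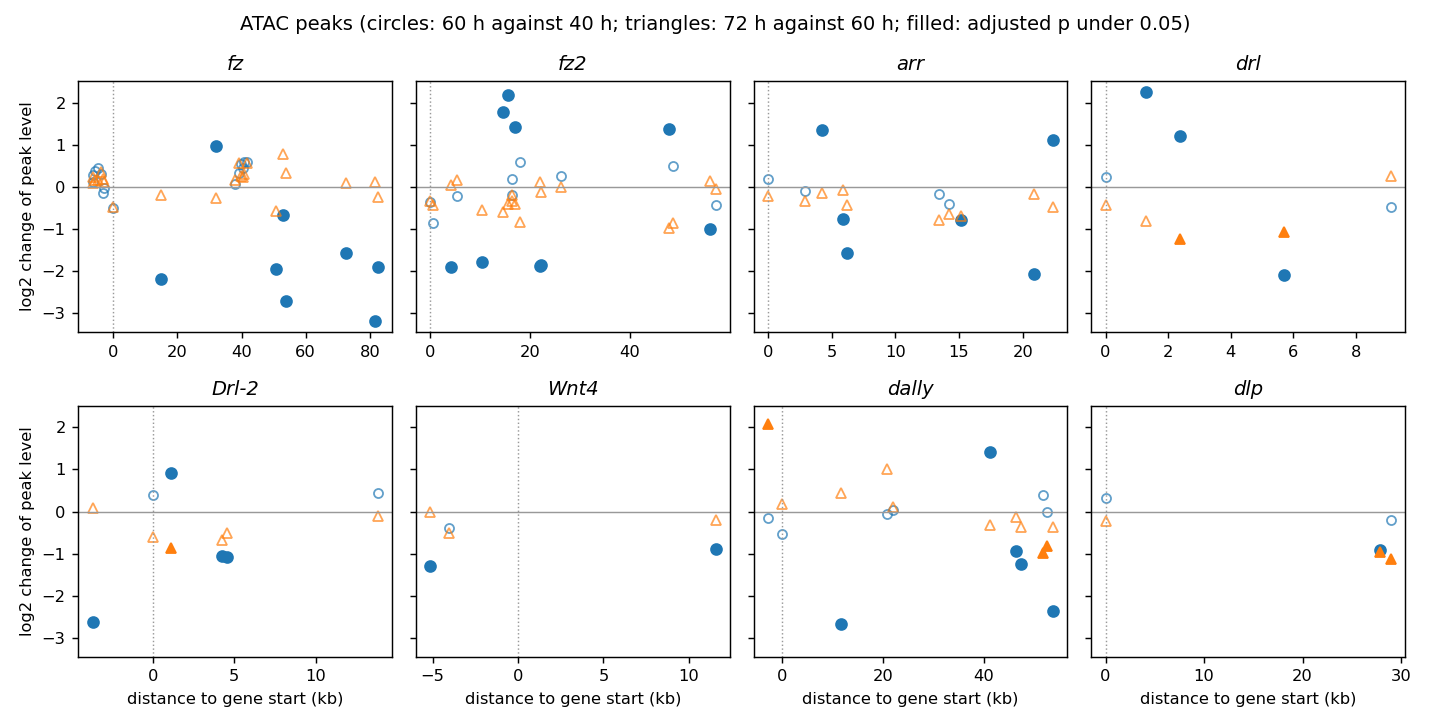
Log2 change of each tested peak against its distance from the gene start in kb, for 60 h against 40 h (circles) and 72 h against 60 h (triangles). Filled symbols passed an adjusted p of 0.05. The deep falls at fz lie inside the gene, 14.9 kb or farther from its start, and the dally peak upstream of the start is the single filled rise at 72 h.

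Of the 79 tested peaks, 11 were higher, 27 lower and 41 not called at 60 h against 40 h. That is 48.1% called, where 26.7% of all 23508 tested peaks were (10.7% higher and 16% lower). Away from gene starts, 15.5% of the 71 member peaks were higher and 38.0% lower, beside 13.2% and 18.5% of all such peaks. From 60 h to 72 h 1 was higher and 7 lower, 10.1% called beside 5.11% (0.723% higher and 4.39% lower). For 72 h against 40 h 15 were higher and 35 lower, 63.3% beside 55.4% (26% higher and 29.4% lower). The 40 h replicate 2 library decides part of the first count: without it, 11 were higher and 11 lower at 60 h.

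No peak over a gene start was called at 60 h against 40 h, in genes whose RNA rose, fell or was steady. Of the 8 start peaks, 0 were called by limma, 1 (dally) had an unadjusted p under 0.05, and 0 were called by voom. The dally start passed without 60 h replicate 1 (-0.64), a fit that leaves 1 library at 60 h, and with the crossed replicate block (-0.54, adjusted p = 0.030). The crossed block exchanges the replicate numbers at 40 h. It was chosen after seeing the data and rests on no pairing in the labels, so little weight falls on calls made with it. Of all start peaks 3.51% were higher and 8.55% lower. With so few start peaks, 0 of 8 is near those shares, and nothing is read from the count. The fz start was at 94.5 and 137 at 40 h, then 92.8 and 68.9 at 60 h and later 49.0 and 66.5 at 72 h. The 40 h and 60 h values nearly touched, and the change was -0.50 ± 0.25 (adjusted p = 0.16), beside a change of fz RNA of -4.63. It passed the threshold without 60 h replicate 1 (-0.72, adjusted p = 0.038).

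At the Drl-2 start the level was 80.7 and 105 at 40 h, then 128 and 113 at 60 h and later 79.7 and 77.9 at 72 h. The 60 h libraries were highest by a small margin, and the change to 60 h was 0.38 ± 0.20 (adjusted p = 0.18). Quantile normalization and scaling to read totals brought it past the threshold, at 0.67 and 0.62 (adjusted p = 0.0049 and 0.011). The drl start changed by 0.25 ± 0.21, while drl RNA fell by 2.96. It too passed under quantile normalization (0.48, adjusted p = 0.036) and with read totals (0.48, adjusted p = 0.044), in the direction opposite to the RNA.

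From 60 h to 72 h 0 start peaks were called by limma or by voom, and 1 (Drl-2) had an unadjusted p under 0.05. Of all start peaks 0.148% were higher and 3.18% lower in that interval, so nothing is read from this count either. The Drl-2 start passed with the crossed block (-0.60, adjusted p = 0.019). Against 40 h, 3 were lower at 72 h, those of fz (-0.98 ± 0.25, adjusted p = 0.0067), fz2 (-0.69 ± 0.19, adjusted p = 0.010) and Wnt5 (-0.64 ± 0.20, adjusted p = 0.020). Over all genes 32.9% of start peaks were lower in that comparison. None of these 3 calls held under quantile normalization (-0.54, -0.14 and -0.32) or without 40 h replicate 2 (-0.72, -0.61 and -0.51). The fz2 and Wnt5 calls also ended without 72 h replicate 2 (-0.60 and -0.51) and with read totals (-0.29 and -0.23).

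**Figure D3:**
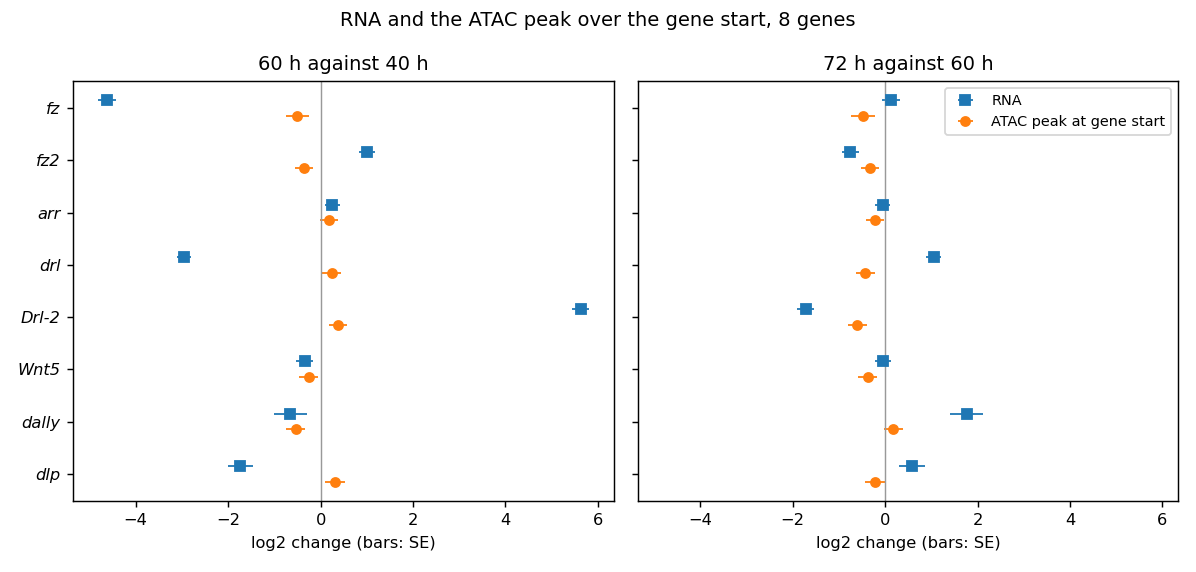
Log2 change with its standard error for RNA (squares) and for the ATAC peak over the gene start (circles) in 8 genes, at 60 h against 40 h and at 72 h against 60 h. RNA spans -4.63 to 5.63 in the first comparison, and the start peaks stay between -0.54 and 0.38.

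Within fz, 7 peaks were lower and 1 higher at 60 h. The deepest fall was at 3L:14355871-14356521, 81.5 kb into the gene. Its level was 80.7 and 114 at 40 h, then 7.52 and 12.5 at 60 h and later 9.68 and 11.6 at 72 h. The 40 h libraries stood far above the other 4, which overlapped, as for fz RNA. It fell by 3.17 ± 0.34 (adjusted p = 4.4e-05) and changed by 0.12 ± 0.34 afterwards (adjusted p = 0.85). Its neighbour at 82.5 kb fell by 1.90 ± 0.24.

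Other deep falls in fz were those at 53.8 kb (-2.70 ± 0.35), 14.9 kb (-2.18 ± 0.25), 50.6 kb (-1.94 ± 0.27) and 72.6 kb (-1.57 ± 0.25). The peak at 52.8 kb fell by 0.67 ± 0.21. The peak at 32.0 kb rose, from 26.0 and 33.9 to 60.6 and 58.6, a change of 0.98 ± 0.22 (adjusted p = 0.0062) that missed the threshold without 40 h replicate 1 (0.80, adjusted p = 0.072). Between 60 h and 72 h limma called 0 of the 22 fz peaks, and 1 had an unadjusted p under 0.05.

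A run of 7 peaks upstream of fz, from -6.4 to -2.8 kb, and a run of 6 peaks inside it, from 37.9 to 41.6 kb, were not called at 60 h, and 0 of them had an unadjusted p under 0.05. In all 13 peaks 60 h replicate 2 was above replicate 1. The same held for 17 of the 22 fz peaks and for 6 of the 18 fz2 peaks. The share over all peaks was not counted, but the lower quartile of all peaks was also higher in replicate 2 (34.5 against 27.5). In the inner run the median level was 35.8 and 26.9 at 40 h, then 31.7 and 54.9 at 60 h and later 46.0 and 63.9 at 72 h. Its 60 h replicates thus differed about as much as the ages did. The peak at 41.6 kb was called at 60 h without 60 h replicate 1 (0.92, adjusted p = 0.0046) and with the crossed block (0.59, adjusted p = 0.039), and from 60 h to 72 h without 60 h replicate 2 (0.89, adjusted p = 0.015). At 72 h against 40 h, 4 of these 6 peaks were higher. The largest rise, at that peak, was 1.16 ± 0.31 (adjusted p = 0.0093) and 0.77 (adjusted p = 0.16) without 40 h replicate 2.

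Peaks within fz2 went both ways at 60 h, with 4 higher and 5 lower of 18. The strongest rise was at 3L:19219089-19219711, 15.7 kb from the start. It was at 9.02 and 13.6 at 40 h, then 63.2 and 46.0 at 60 h and later 53.8 and 30.8 at 72 h. All later libraries were above the 40 h ones (2.19 ± 0.33, adjusted p = 3.7e-04). Beside it, the peaks at 14.6 and 17.0 kb rose by 1.79 ± 0.22 and 1.41 ± 0.22. The strongest fall was 4.1 kb from the start, from 126 and 166 to 41.4 and 34.6 (-1.91 ± 0.22, adjusted p = 6.2e-05). Between 60 h and 72 h limma called 0 of the 18, and 4 had an unadjusted p under 0.05. fz2 RNA fell in that interval.

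In arr, whose RNA was steady, 2 peaks rose and 4 fell of 10 tested. The peak 20.9 kb from the start fell from 113 and 142 to 30.9 and 28.6 (-2.06 ± 0.22, adjusted p = 4.7e-05). The peak 4.2 kb from it rose from 15.7 and 18.1 to 40.0 and 49.6 (1.35 ± 0.24, adjusted p = 0.0014). Called peak changes thus went with no called RNA change here.

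In drl, peaks changed in opposite directions over a few kilobases. At 1.3 kb from the start, 2L:19191647-19191933, the level was 19.4 and 21.2 at 40 h, then 119 and 83.7 at 60 h and later 62.7 and 50.7 at 72 h. It rose by 2.24 ± 0.24 (adjusted p = 3.9e-05) as drl RNA fell. At 5.7 kb, 2L:19196052-19197632, the level was 188 and 225, then 58.0 and 38.5, then 22.7 and 21.5. This peak fell by 2.098 ± 0.23 (adjusted p = 5.5e-05) and was lower again at 72 h, by 1.06 ± 0.23 (adjusted p = 0.029), when drl RNA had risen. That second call ended under quantile normalization (adjusted p = 0.056), with read totals (-0.90, adjusted p = 0.062), and without 40 h replicate 1 or 2, 60 h replicate 1 (-0.78, adjusted p = 0.16), or 72 h replicate 1 or 2 (-1.10 and -1.03).

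In Drl-2, the peak 3.7 kb upstream of the start was at 73.2 and 89.6 at 40 h, then 9.78 and 15.4 at 60 h and later 12.1 and 14.0 at 72 h. It fell by 2.63 ± 0.31 (adjusted p = 7.6e-05) while Drl-2 RNA rose 154-fold. The peak 1.1 kb inside the gene rose from 60.6 and 88.9 to 149 and 130 at 60 h (0.91 ± 0.22, adjusted p = 0.0082) and was at 75.8 and 76.3 at 72 h (-0.86 ± 0.22, adjusted p = 0.046). The later call ended without 60 h replicate 1 (-0.76), without either 72 h replicate (-0.86 each), with no variance trend, by voom and with read totals (-0.69). The level of this 1.1 kb peak was highest at 60 h, as for the RNA. Unlike in the RNA, its 40 h values lay on both sides of the 72 h values. Peaks at 4.3 and 4.6 kb fell by 1.06 ± 0.23 and 1.08 ± 0.23 at 60 h.

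For the ligands, the Wnt4 peak 5.1 kb upstream of the start fell from 58.4 and 66.8 to 27.5 and 22.9 at 60 h (-1.28 ± 0.23, adjusted p = 0.0013), and missed the threshold without 40 h replicate 2 (-1.19, adjusted p = 0.054). The single Wnt5 peak, over the start, changed by -0.26 ± 0.20 (adjusted p = 0.37). At dlp the peak at 27.8 kb fell from 69.9 and 84.4 to 45.8 and 35.5 (-0.91 ± 0.23, adjusted p = 0.011), a call that ended under quantile normalization (-0.79) and without 40 h replicate 1 or 2 (-1.05 and -0.78).

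The 7 falls from 60 h to 72 h lay at drl (2), Drl-2 (1), dally (2) and dlp (2). They ranged from -0.83 to -1.25, with adjusted p of 0.027 to 0.049. Without 72 h replicate 1, without 72 h replicate 2, with read totals and at a threshold of 0.01 the count of lower peaks was 0. It was 1 without 40 h replicate 2, 3 without 40 h replicate 1 or 60 h replicate 1, 4 by voom and 18 without 60 h replicate 2.

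The rise in that interval was at dally. The peak at 3L:8823694-8824693, 2.8 kb upstream of the start, was at 23.2 and 26.2 at 40 h, then 19.9 and 24.6 at 60 h and later 94.1 and 99.1 at 72 h. The first 4 libraries overlapped, and both 72 h libraries lay well above them. It rose by 2.08 ± 0.22 (adjusted p = 0.0049), a 4.34-fold difference of means, and was called under every alternative run, the threshold of 0.01 included. The dally start itself changed by 0.18 ± 0.21 (adjusted p = 0.61). The glial sums given above are RNA values from other libraries. In the ATAC data 2 start peaks of the listed glial genes were tested. From 60 h to 72 h 0 of these 2 were called (median log2 change -0.45, beside -0.21 for start peaks of all genes). Compared with 40 h, 2 were lower at 72 h (median -0.85, beside -0.31), a direction called for 32.9% of all start peaks. The part of glial cells in the dally peak was not tested.

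Elsewhere in dally, the peak at 11.6 kb fell from 60.8 and 95.5 to 7.57 and 16.2 at 60 h (-2.67 ± 0.37, adjusted p = 2.3e-04). The one at 53.7 kb fell by 2.36 ± 0.27, and that at 41.3 kb rose by 1.41 ± 0.23. dally RNA had no called change in that interval (-0.66 ± 0.36, adjusted p = 0.16).

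**Figure D4:**
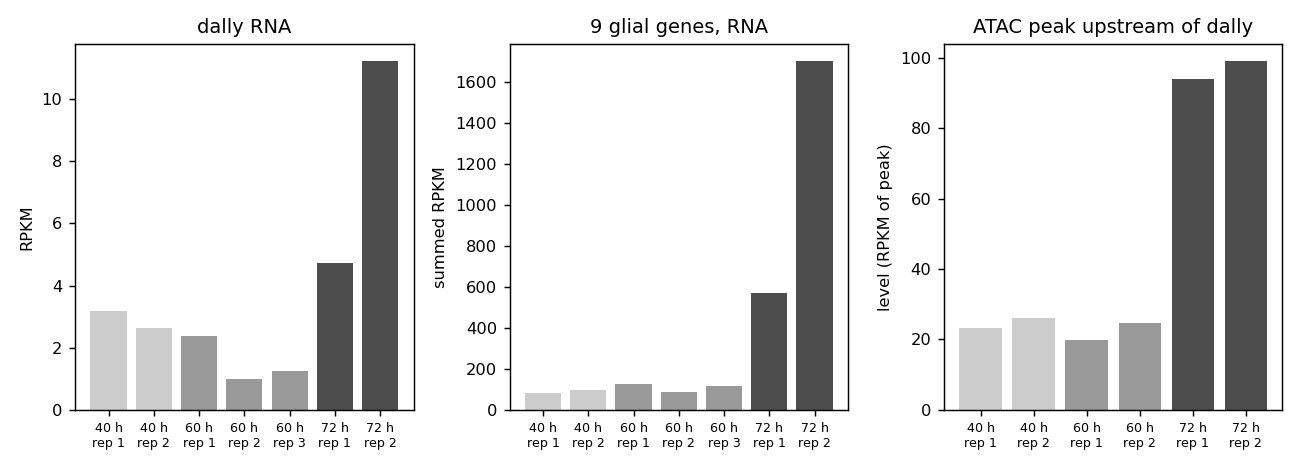
Level in each library of dally RNA (RPKM), of 9 glial genes summed (RPKM) and of the ATAC peak upstream of dally (RPKM of the peak). All 3 are highest at 72 h, where the RNA values of replicate 2 exceed those of replicate 1 and the ATAC values are alike, at 94.1 and 99.1.

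Other genes of the pathway give the setting for these members. Of 69 listed genes, 58 were in the table and 53 were tested. At 60 h against 40 h 8 were higher, 22 lower and 23 not called, with a median of -0.34 beside -0.002 over all genes, of which 25.2% were higher and 22.5% lower. From 60 h to 72 h 4 were higher and 10 lower (median -0.07), beside 16.6% and 16.4% of all genes. For 72 h against 40 h 9 were higher and 26 lower (median -0.42), beside 30.2% and 29.1%. None of the other Wnt ligands listed (wg, Wnt2, Wnt6, Wnt10 and wntD) was found by name among the 7076 genes of the RNA data.

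**Figure D5:**
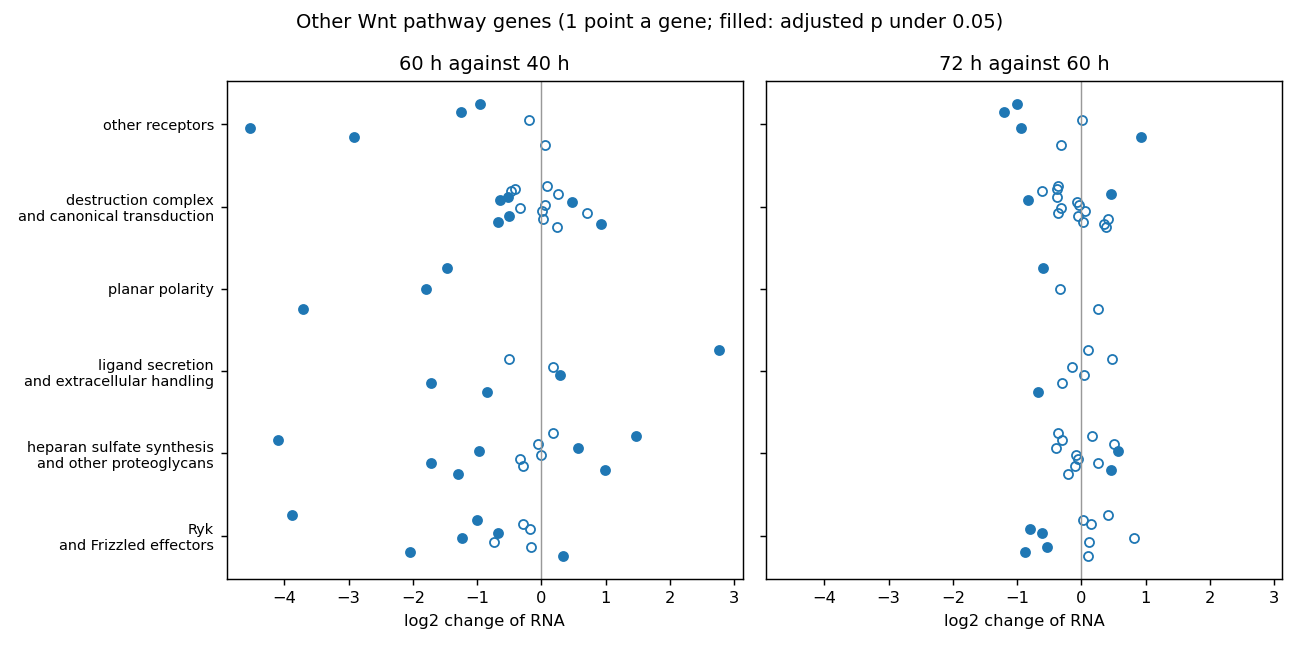
Log2 RNA change of each tested pathway gene in 6 lists, with 1 point per gene and filled points past an adjusted p of 0.05. At 60 h against 40 h the other receptors and the planar polarity genes show called falls and no called rise, and 1 secreted proteoglycan gene, Cow, stands at 2.77.

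Of 6 other receptor genes tested, 4 fell and none rose at 60 h, beside 22.5% and 25.2% of all genes. otk, an off-track receptor that associates with Frizzled proteins, went from 71.2 and 69.9 RPKM at 40 h to 3.264, 2.09 and 1.23 RPKM at 60 h and 1.05 and 0.274 RPKM at 72 h. It fell by 4.54 ± 0.31 (adjusted p = 8.4e-07). otk2 fell by 2.91 ± 0.22 and, as drl did, rose from 60 h to 72 h, by 0.93 ± 0.22 (adjusted p = 0.0084). Ror, another receptor tyrosine kinase of Wnt signalling, fell by 0.96 ± 0.14 and again by 1.00 ± 0.14.

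Of 3 planar polarity genes tested all fell at 60 h, beside 22.5% of all genes. There stan, the cadherin flamingo, went from 20.3 and 23.5 RPKM to 0.761, 0.502 and 1.03 RPKM (-3.71 ± 0.25, adjusted p = 8.9e-07). Vang, its partner in polarity, fell by 1.46 ± 0.15 and by 0.60 ± 0.15 from 60 h to 72 h (adjusted p = 0.0095).

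Of 16 destruction complex and canonical transduction genes tested, 2 rose, 4 fell and 10 were not called at 60 h (median 0.01). Of all genes 25.2% rose and 22.5% fell. At 72 h against 40 h 4 of the 16 were higher and 7 lower, beside 30.2% and 29.1% of all genes. sgg, the GSK3 kinase that marks armadillo for destruction, rose by 0.93 ± 0.13 (adjusted p = 2.0e-04), and pygo, a nuclear cofactor of armadillo, fell by 0.67 ± 0.20 (adjusted p = 0.019). arm itself was at 808 and 667 RPKM at 40 h, 514, 446 and 450 RPKM at 60 h and 259 and 266 RPKM at 72 h. It fell by 0.65 ± 0.12 and then by 0.83 ± 0.12 (adjusted p = 1.0e-03 and 3.8e-04), with no overlap between ages. arm also serves in cadherin adhesion. CkIalpha, a kinase of the destruction complex, rose by 0.46 ± 0.11 from 60 h to 72 h (adjusted p = 0.0090).

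In ligand handling, 2 of 6 tested genes rose and 2 fell at 60 h, beside 25.2% and 22.5% of all genes. Cow, a secreted heparan sulfate proteoglycan known to carry Wingless, went from 203 and 195 RPKM to at least 1263 RPKM in every 60 h library and stayed there. It rose by 2.77 ± 0.11 (adjusted p = 1.4e-08), and its level was far above that of dally or dlp at all ages. por, the acyltransferase that adds the lipid to Wnt proteins, fell by 1.73 ± 0.23 (adjusted p = 1.2e-04). wls, which carries Wnt proteins to the surface, fell by 0.85 ± 0.16 and by 0.68 ± 0.16 from 60 h to 72 h (adjusted p = 0.0081).

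Of 12 tested genes of heparan sulfate synthesis and other proteoglycans, 3 rose and 4 fell at 60 h. These counts are near the 25.2% and 22.5% of all genes, and nothing is read from them. The paralogous sulfotransferase genes went opposite ways. Hs3st-B was at 156 and 142 RPKM at 40 h and at 9.47, 9.77 and 4.98 RPKM at 60 h (-4.10 ± 0.25, adjusted p = 3.2e-07). Hs3st-A was at 0.594 and 0.946 RPKM and then at 2.95, 5.38 and 3.62 RPKM (1.47 ± 0.28, adjusted p = 0.0014), so Hs3st-B was still the higher of the pair in every 60 h library. Sdc, the cell-surface proteoglycan syndecan, was at 196 RPKM on average at 40 h. It fell by 0.97 ± 0.12 and rose by 0.56 ± 0.12 from 60 h to 72 h (adjusted p = 0.0049).

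Of 10 effector genes tested, 1 rose and 5 fell at 60 h, beside 25.2% and 22.5% of all genes. Btk29A, a Tec-family kinase, went from 20.3 and 25.2 RPKM to 0.541, 0.432 and 0.883 RPKM (-3.88 ± 0.25, adjusted p = 6.3e-07). Src64B, a Src kinase that acts with derailed, was at 328 and 283 RPKM at 40 h, 75.4, 75.2 and 69.7 RPKM at 60 h, and 40.8 and 38.1 RPKM at 72 h. It fell by 2.04 ± 0.11 and again by 0.88 ± 0.11 (adjusted p = 1.5e-04), so it did not follow the return of drl. bsk, the Jun kinase, rose by 0.34 ± 0.10 at 60 h (adjusted p = 0.014).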

How the data were processed

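Bulk RNA-seq (7 libraries) and ATAC-seq (6) from sorted L1 neurons were used. The RNA values were deposited by the authors as RPKM, per the file headers. The ATAC unit was not labelled, but each library's values, once multiplied by width, came out as whole reads (100% within 0.1 of a read), so the deposited levels were read as RPKM of the peak. RNA reads were whole for 7074 of 7076 genes (within 0.01). The submitters' processing notes name, without roles, Cell Ranger 3.1.0, Seurat 3.1.2, edgeR 3.26.8, MACS2 2.1.1, Bowtie2 2.2.9 and bedtools. How reads of paralogs or antisense genes were counted is not given in the sources used here.

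For each assay 1 fit of log2(RPKM + 1) with limma (3.58.1, R 4.3.3) took in all 3 ages, with the variance moderated along a trend, no block and two-sided Benjamini-Hochberg adjusted p under 0.05. This scale understates changes of low features. Genes with at least 1 RPKM in 2 libraries (6939) and all peaks but the 10% with the lowest mean level (23508 left) entered the test. The fit was also run on simulated data with independent noise for each feature. ATAC libraries deviated together in some pairs of ages, which the simulation lacked, so it is no support for the calls. No source says whether replicates came from separate animals, so p-values speak only for the spread among these libraries, which may be technical. The members, gene lists and tests were chosen with earlier results of these data known. Of pathway genes, the largest called rise and fall per list and contrast were named, with a few others chosen after their values were seen (Ror, otk2 and dnt at 60 h, Vang, arm, wls, Sdc and Src64B at 60 h). Per gene, the nearest peak and the largest called rise and fall were named, and the further peaks of fz, fz2, arr, Drl-2 and dally were chosen after their values were seen. Replicate numbers in the labels were not taken to pair the samples. Alternatives were another pseudocount, no filter, quantile normalization, no variance trend, a block, a threshold of 0.01 and leaving out each library. Those added after seeing the data were voom on recovered reads, scaling to read totals, a crossed block (ATAC, 40 h replicate numbers exchanged), and leaving out 60 h RNA replicates 1 and 2.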

Additional observations from a re-analysis of the deposited data

How the results depend on the processing

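Depth limits Wnt4 and dlp most, since Wnt4 rested on 8 to 412 reads and dlp on as few as 22. Among member gene changes 365 recomputed values kept direction and side of the threshold, 13 reversed, 7 lost a call (2 changes), 3 gained one (3 changes) and 11 with no test moved. Among named peaks 1122 did so, 32 reversed, 60 lost a call (16 changes) and 25 gained one (15 changes). Every reversed value belonged to a change that was not called. The alternatives chosen after seeing the data were voom, read totals, the crossed block and leaving out 60 h RNA replicates 1 and 2. Causes of the shifts below were not tested.

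Leaving out 1 library at a time gave 1493 to 2384 genes called at 72 h against 60 h (2290 with all). The lowest came without 72 h replicate 1. Called peaks ran from 2696 (without 40h replicate 2) to 10575 (without 60h replicate 1) at 60 h against 40 h, from 164 (without 72h replicate 2) to 6099 (without 60h replicate 2) at 72 h against 60 h, and from 6274 (without 40h replicate 2) to 15055 at 72 h against 40 h. Member peaks called ran from 22 to 49, 1 to 26 and 28 to 54 in those comparisons (38, 8 and 50 with all). Without 60 h RNA replicates 1 and 2, 2130 genes were called at 60 h against 40 h (3312 with all) and 1011 at 72 h against 60 h. At a threshold of 0.01 the last count was 1465, with 69 peaks and 1 member peak. For 72 h against 60 h voom called 5 member peaks, and read totals 748 peaks and 2 member peaks.

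Same-numbered replicates deviated together in some pairs of ages and not in others, so the numbers were not taken as pairs (r = 0.017 and -0.47 for RNA and ATAC at 60 h against 40 h, -0.046 and 0.55 from 60 h to 72 h, and 0.216 and -0.11 from 40 h to 72 h). With the replicate block, in that order, 3027, 2099 and 4061 genes, 6480, 1511 and 13332 peaks and 39, 11 and 52 member peaks were called. With the 40 h numbers crossed, 9509, 4723 and 15438 peaks and 44, 20 and 54 member peaks were called.

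Read totals moved the median of all genes by -0.23, -0.17 and -0.40 and of all peaks by 0.34, 0.15 and 0.48. Genes called higher and lower then numbered 1289 and 2396, 833 and 1766, and 1404 and 3122, beside 1748 and 1564, 1150 and 1140, and 2097 and 2018 in the reported fit. Peaks numbered 4181 and 2880, 193 and 555, and 10516 and 4687, beside 2518 and 3754, 170 and 1031, and 6108 and 6908. For 72 h against 60 h, quantile normalization gave 412 and 1230 and the crossed block 1297 and 3426.

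Beyond those already given, dally at 72 h against 40 h missed the threshold with a pseudocount of 0.1 (1.30, adjusted p = 0.056) and with read totals (0.75, adjusted p = 0.13), over a range of adjusted p from 0.0064 to 0.27. The dlp rise to 72 h passed with no variance trend (adjusted p = 0.040).

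Reversed RNA values at 72 h against 60 h, leaving out 1 library, spanned -0.20 to 0.085 for arr, -0.030 to 0.30 for fz and -0.14 to 0.032 for Wnt5. Without 60 h replicates 1 and 2 they were 0.12 for arr and 0.066 for Wnt5. Wnt5 was 0.011 under quantile normalization and fz -0.013 with read totals. At 72 h against 40 h arr spanned -0.013 to 0.41 and Wnt4 -1.12 to 0.37, and with read totals arr was -0.23 and fz2 -0.15.

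Reversed peaks at 60 h against 40 h were those of dally at -2.8 kb (0.080) and dlp at 28.9 kb (0.041) with read totals, and the fz2 (0.00027) and Wnt5 (0.023) starts under quantile normalization. At 72 h against 60 h, leaving out 1 library gave -0.068 to 0.94 for dally at 11.6 kb, -0.22 to 0.45 for fz at 81.5 kb, -1.12 to 0.12 for Wnt4 at -4.1 kb, -0.13 to 0.13 for Wnt4 at -5.1 kb, -0.084 to 0.17 for fz2 at 4.1 kb and -0.22 to 0.38 for Drl-2 at -3.7 kb. Wnt4 at -5.1 kb was 7.4e-05 with a pseudocount of 0.1 and 0.16 with read totals, fz2 at 4.1 kb -0.0074 under quantile normalization and arr at 4.2 kb 0.012 with read totals.

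At 72 h against 40 h, leaving out 1 library gave -0.0015 to 0.20 for the dlp start, -0.38 to 0.0059 for the drl start, -0.34 to 0.26 for drl at 2.4 kb, -0.22 to 0.32 for Drl-2 at 1.1 kb (called higher under quantile normalization, 0.51, adjusted p = 0.018, and with read totals, 0.45, adjusted p = 0.035) and -0.079 to 0.037 for the arr start. Read totals gave a called 0.50 (adjusted p = 0.040) for the dlp start, and 0.042 for the dally start, 0.22 for the drl start, 0.36 for drl at 2.4 kb, 0.18 for the Drl-2 start and 0.38 for the arr start. Quantile normalization gave 0.22 for the drl start, 0.32 for the Drl-2 start and 0.090 for the arr start. The promoter motif searches that were planned were not run.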
